A study of Mus musculus with 12 samples.

Results

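Prox1, Pdpn, Mmrn1, Reln, Ccl21a and Foxc2, 6 genes used to mark the endothelium of lymphatic vessels, were followed in RNA-seq libraries of mouse veins. They were chosen by gene name, and all 6 were found among the 43346 genes of the count table. All 6 were among the 18965 genes with enough counts to be tested. In the AVF-CKD group (n = 6) the tissue was the venous limb of the AVF, and in the sham group (n = 6) it was a jugular vein. Both groups were harvested 7 days after surgery. The labels do not spell out AVF or CKD, which are read here as arteriovenous fistula, a surgical join of an artery to a vein, and chronic kidney disease. They give no strain, sex or age, and they do not say what the sham operation consisted of. The vessel piece, the fistula and the kidney condition therefore cannot be told apart in this comparison. Nothing in the labels says that the libraries came from separate animals, so p-values measure the spread between these libraries, which may be technical.

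Lymphatic vessels drain fluid and leukocytes from the wall and surroundings of larger blood vessels. During development some vein endothelial cells switch on Prox1 under SOX18 and NR2F2, and these cells leave the vein along a gradient of VEGF-C, which signals through the receptor VEGFR3, the product of Flt4. PROX1 is the master transcription factor of the lymphatic fate, and FOXC2 is the forkhead transcription factor needed for lymphatic valves. Podoplanin (Pdpn) is a surface mucin that binds the platelet receptor CLEC-2, and it is also made by fibroblasts, mesothelium and some activated macrophages. MMRN1 is a secreted multimerin that is stored in platelets as well as lymphatic endothelium, RELN is the secreted glycoprotein reelin, and CCL21 is the chemokine that draws CCR7-bearing dendritic cells and T cells into lymphatics.

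The coordinates of the genes, in the build GRCm38 of the deposited table, place Prox1 at chr1:190118035-190170714, Pdpn at chr4:143267431-143299564, Mmrn1 at chr6:60924976-60989378, Reln at chr5:21884454-22344702, Ccl21a at chr4:42772860-42773993 and Foxc2 at chr8:121116171-121118895. Mmrn1 and Foxc2 lie on the plus strand and the others on the minus strand. The GENCODE M21 annotation of GRCm38 lists all 6 as protein coding. Its other gene models overlapped 1.585% of the exonic bases of Prox1 (Prox1os, opposite strand), 1.036% of those of Reln (Gm10475, opposite strand) and none of the exonic bases of the other members.

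Ccl21a needs its sequence to be read correctly, because the mouse genome carries near-identical copies of it. The coding sequences of Ccl21b, Gm21541, Gm13304 and Gm10591 were each 402 bases long, as was that of Ccl21a, and each differed from it by 2 substitutions, T84A and C194T (99.5% identity). The base of Ccl21a comes first, and positions count from 1 at the A of the start codon. The substitutions fall in codons 28 and 65. Below, the differing base is in capitals within 41 bases of the coding sequence, from the GENCODE M21 transcripts of GRCm38.
Ccl21a, bases 64 to 104: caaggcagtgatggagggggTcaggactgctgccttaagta
Ccl21b, bases 64 to 104: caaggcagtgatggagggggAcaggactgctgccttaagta
Ccl21a, bases 174 to 214: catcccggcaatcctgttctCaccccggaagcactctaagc
Ccl21b, bases 174 to 214: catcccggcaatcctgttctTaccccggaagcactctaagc
Gm21541, Gm13304 and Gm10591 matched Ccl21b in both stretches. Over all 12 libraries the deposited table held 16714 counts for Ccl21a, 654 for Gm21541 (3.91% of the Ccl21a sum), 196 for Gm13304 (1.17%), 16 for Gm10591 and 0 for Ccl21b. How the counting treated reads that fit several copies is not given in the sources used here, so the count of Ccl21a is uncertain with respect to its copies.

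The 250 bases before the start of a gene hold much of its core promoter. They are shown for 4 members, as listed by RefSeq for GRCm38.p6 and read along the strand of the gene, since Prox1, Reln and Ccl21a varied together over the libraries and Pdpn did not (values further on). Capitals mark matches, on either strand, to short motifs of factors known from lymphatic or endothelial genes and to the TATA box, a core promoter element.
Prox1 (chr1:190170828-190171077, minus strand): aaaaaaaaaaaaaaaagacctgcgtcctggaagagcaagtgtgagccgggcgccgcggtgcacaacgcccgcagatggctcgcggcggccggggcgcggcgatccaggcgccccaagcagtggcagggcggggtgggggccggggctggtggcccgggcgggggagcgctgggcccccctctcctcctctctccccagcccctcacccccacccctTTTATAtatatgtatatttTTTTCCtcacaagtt
Reln (chr5:22344706-22344955, minus strand): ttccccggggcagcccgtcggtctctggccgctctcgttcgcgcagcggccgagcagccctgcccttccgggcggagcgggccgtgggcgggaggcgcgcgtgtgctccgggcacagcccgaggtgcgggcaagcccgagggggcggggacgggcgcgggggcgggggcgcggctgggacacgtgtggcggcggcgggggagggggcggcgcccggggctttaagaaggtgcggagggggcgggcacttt
Ccl21a (chr4:42773992-42774241, minus strand): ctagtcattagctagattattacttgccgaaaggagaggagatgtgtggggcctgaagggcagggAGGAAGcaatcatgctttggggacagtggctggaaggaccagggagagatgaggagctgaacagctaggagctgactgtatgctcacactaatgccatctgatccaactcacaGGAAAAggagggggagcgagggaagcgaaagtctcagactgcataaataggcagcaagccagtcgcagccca
Pdpn (chr4:143299565-143299814, minus strand): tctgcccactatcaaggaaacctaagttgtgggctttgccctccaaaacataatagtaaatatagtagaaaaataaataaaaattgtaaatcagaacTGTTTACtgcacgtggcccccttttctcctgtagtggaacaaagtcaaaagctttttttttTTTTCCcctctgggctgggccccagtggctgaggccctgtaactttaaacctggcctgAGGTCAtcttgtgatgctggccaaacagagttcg
The motif searched for ETS factors was AGGAAG, and for SOX factors it was AACAAT. The forkhead motif was TGTTTAC, and the motif of NFAT factors was GGAAAA. For the GATA factors it was AGATAA, and for the nuclear receptors around NR2F2 it was the half-site AGGTCA. The last was the core promoter motif TATAAA. The RefSeq start of Mmrn1 lies 19341 bases inside the gene as the count table gives it, so its window was searched but is not shown. Foxc2 is named here without a promoter.

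The GGAAAA motif stood in the windows of Prox1, Pdpn, Mmrn1 and Ccl21a, 4 of the 5 searched, and in 20.4% of 32817 RefSeq promoter windows of the same length. AGGAAG stood in the window of Ccl21a and in 29.5% of all windows. AACAAT stood in that of Mmrn1 and in 9.42% of all windows. Pdpn held TGTTTAC, found in 3.16% of all windows, and AGGTCA, found in 14.0%. Prox1 held TATAAA on the opposite strand, found in 12.4% of all windows. AGATAA, found in 9.99% of all windows, was in none of the 5, and no match overlapped a match of another motif. Reln held no match. Its window was 80.0% G and C, against 64.8% for Prox1, 52.8% for Ccl21a, 43.2% for Pdpn, 42.4% for Mmrn1 and a median of 52.4% over all windows. These matches describe the letters only, and binding was not measured.

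The libraries held 38653830 to 60142016 counts in genes. Levels are given as CPM, counts relative to the library total after TMM scaling, which corrects that total for composition. Differences between the groups come from the quasi-likelihood F-test of edgeR over all 18965 genes. They are given as log2 fold changes of AVF-CKD over sham with their standard error, and p-values were adjusted by the Benjamini-Hochberg method. The smooth muscle markers Acta2, Myh11 and Tagln and the endothelial markers Pecam1 and Cdh5 had counts in every library, as had the lymphatic markers Flt4 and Lyve1. No gene reached an adjusted p below 0.05 in this test (0%), while 9.34% of genes had an unadjusted p below 0.05. DESeq2 called 102 of the 18210 genes for which it gave an adjusted p (0.56%).

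The 6 genes did not separate the groups. None was called by edgeR or by DESeq2, 4 had positive and 2 had negative log2 fold changes (49.1% of all tested genes were positive), and their median was 0.18 against -0.00 over all tested genes. Only Pdpn, with a positive sign, had an unadjusted p below 0.05, which 5.26% of all tested genes had with a positive and 4.08% with a negative sign. The groups overlapped in all 6 members, while 0.638% of tested genes had groups that did not overlap. In these whole pieces of vein, more lymphatic cells and more RNA of a gene per lymphatic cell cannot be told apart.

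**Figure D1:**
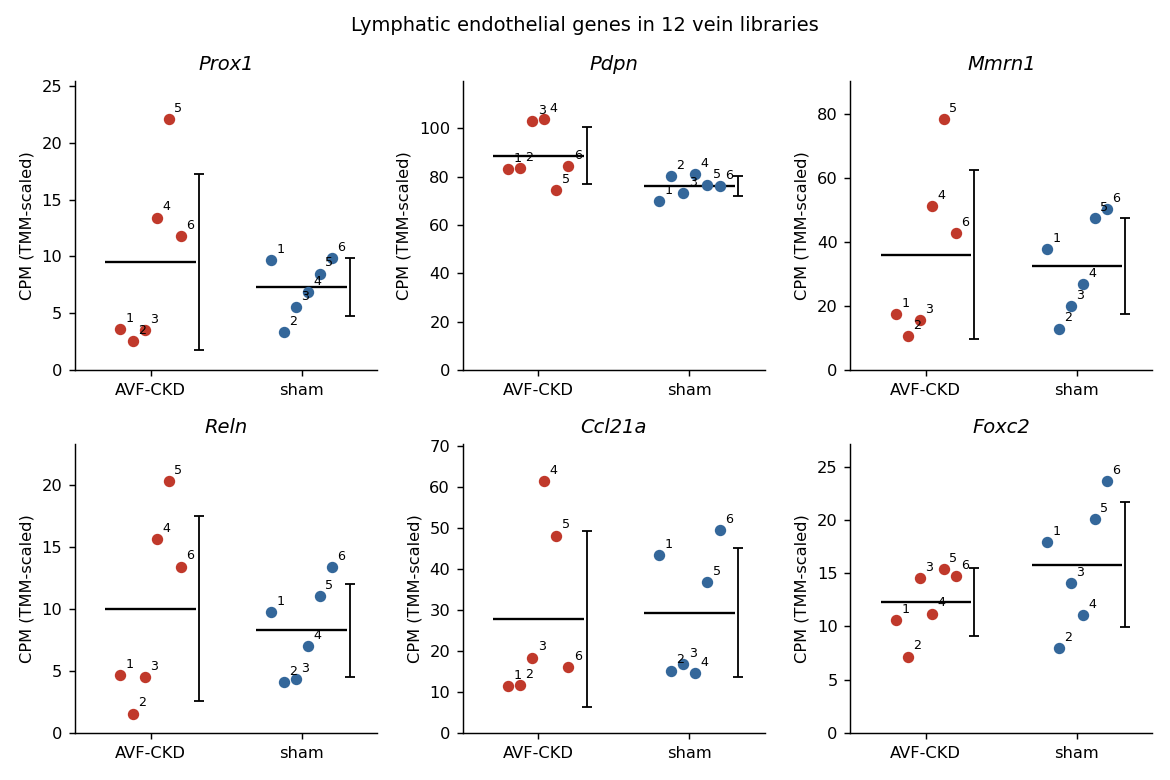
Level of each of the 6 genes in every library, in TMM-scaled CPM on a linear axis from 0, with AVF-CKD libraries in red on the left and sham libraries in blue on the right. Each point is 1 library with its number, the horizontal line is the group mean and the bar the SD (n = 6 each), and for every gene the points of the groups overlap.

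Prox1, the lymphatic fate factor, ranged in AVF-CKD from 2.58 to 22.1 CPM with a median of 7.69, and in sham from 3.38 to 9.86 CPM with a median of 7.68. The AVF-CKD libraries fell apart into a low and a high set, with AVF-CKD 1, 2 and 3 at 3.61, 2.58 and 3.53 CPM and AVF-CKD 4, 5 and 6 at 13.4, 22.1 and 11.8 CPM, on either side of most sham libraries. The means were 9.50 ± 7.71 CPM in AVF-CKD and 7.31 ± 2.53 CPM in sham (SD, n = 6 each). The log2 fold change of Prox1 was 0.38 ± 0.49 (95% interval -0.68 to 1.44, edgeR adjusted p = 0.847), and it rested on AVF-CKD 5, without which it was -0.06.

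Foxc2, the valve factor, ranged in AVF-CKD from 7.16 to 15.4 CPM with a median of 12.9, and in sham from 7.94 to 23.6 CPM with a median of 16.01. The highest 3 libraries were all sham (numbers 1, 5 and 6), but AVF-CKD 2 and sham 2 were both low and the groups overlapped. The log2 fold change of Foxc2 was -0.36 ± 0.26 (95% interval -0.92 to 0.19, edgeR adjusted p = 0.697).

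Podoplanin differed from the other members in that it hardly varied. Pdpn ranged in AVF-CKD from 74.5 to 104.0 CPM with a median of 84.0, and in sham from 70.03 to 81.0 CPM with a median of 76.3. AVF-CKD 5, the library highest in Prox1, Mmrn1 and Reln, was the lowest AVF-CKD library in Pdpn, and the other 5 were above every sham library. The means were 88.8 ± 11.9 CPM in AVF-CKD and 76.2 ± 4.17 CPM in sham (SD, n = 6 each). The log2 fold change of Pdpn was 0.22 ± 0.08 (95% interval 0.04 to 0.40, edgeR unadjusted p = 0.0223), which did not hold after adjustment over all genes (adjusted p = 0.487). A two-sided exact permutation test of its log2 CPM gave p = 0.0173, where the smallest p that 6 against 6 libraries allow is 0.00216. The same exact permutation test gave p from 0.303 (Foxc2) to 0.968 (Prox1) for the other members. These p were not adjusted for the number of members.

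The mesothelium also makes podoplanin. Its list (2 of 4 genes tested) summed to 1.82 to 3.10 CPM in AVF-CKD and 0.369 to 2.28 CPM in sham. The median log2 fold change of the tested genes, Msln and Wt1, was 0.98. Upk3b and Lrrn4 had too few counts to be tested and averaged lower in AVF-CKD. They stood at 0.0303 and 0.0734 CPM there, and at 0.0413 and 0.145 CPM in sham. All 4 genes enter the r of the list with Pdpn. Msln, the mesothelial surface protein mesothelin, averaged 1.91 ± 0.582 CPM in AVF-CKD and 0.863 ± 0.537 CPM in sham (SD, n = 6 each), with a log2 fold change of 1.16 ± 0.40 that was not called (edgeR adjusted p = 0.443). The r of the list with Pdpn was 0.435 (rho = 0.357, permutation adjusted p = 0.435), -0.64 within AVF-CKD and 0.828 within sham, and 0.668 without the 2 farthest libraries. Fibroblasts and some activated macrophages make podoplanin as well. The fibroblast list summed to 10204 to 17616 CPM in AVF-CKD and 11155 to 17939 CPM in sham. Its r with Pdpn was -0.489 (rho = -0.539, permutation adjusted p = 0.290), and -0.570 without the 2 farthest libraries. For the macrophage list the r with Pdpn was 0.404 (rho = 0.455, permutation adjusted p = 0.461), and 0.575 without them. The part of mesothelium, fibroblasts or macrophages in the level of Pdpn was not tested.

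Mmrn1, the secreted multimerin, ranged in AVF-CKD from 10.7 to 78.4 CPM with a median of 30.1, and in sham from 13.0 to 50.2 CPM with a median of 32.3. As for Prox1, AVF-CKD 1 to 3 were low (10.7 to 17.5 CPM) and AVF-CKD 4 to 6 high (42.7 to 78.4 CPM), and the sham libraries overlapped both sets. The log2 fold change of Mmrn1 was 0.15 ± 0.47 (95% interval -0.88 to 1.17, edgeR adjusted p = 0.948). It was -0.24 without AVF-CKD 5 and -0.02 without sham 2.

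Reln, the gene of reelin, had the widest range of the 6. It ran in AVF-CKD from 1.55 to 20.3 CPM with a median of 9.04, and in sham from 4.11 to 13.4 CPM with a median of 8.40. AVF-CKD 2 was lowest and AVF-CKD 5 highest. The log2 fold change of Reln was 0.28 ± 0.52 (95% interval -0.85 to 1.40, edgeR adjusted p = 0.899). Without AVF-CKD 5 it was -0.05.

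Ccl21a, a gene of the chemokine CCL21, ranged in AVF-CKD from 11.5 to 61.3 CPM with a median of 17.2. In sham it ranged from 14.6 to 49.4 CPM with a median of 26.7. It stood at 61.3 and 48.1 CPM in AVF-CKD 4 and 5 but at 16.03 CPM in AVF-CKD 6, a library in which Prox1, Mmrn1 and Reln were high. In sham, numbers 1, 5 and 6 were at 43.3, 36.7 and 49.4 CPM and the other 3 at 14.6 to 16.8 CPM. The log2 fold change of Ccl21a was -0.08 ± 0.48 (95% interval -1.12 to 0.96, edgeR adjusted p = 0.975). It was positive, at 0.01 to 0.13, when AVF-CKD 1, 2, 3 or 6 or sham 1 or 6 was left out, and -0.48 and -0.30 without AVF-CKD 4 and 5. The intervals of Prox1, Mmrn1, Reln and Ccl21a reached past a doubling, a log2 difference of 1, in at least 1 direction, so these intervals do not exclude a change of that size.

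Per length, the members covered a wide span of levels. In CPM per kilobase of the length in the count table, averaged over 12 libraries, Pdpn was at 45.4, Ccl21a at 32.8, Mmrn1 at 5.84, Foxc2 at 5.14, Prox1 at 1.00 and Reln at 0.461. Pdpn and Ccl21a were not ordered beyond their spread, with Pdpn the higher in 7 of 12 libraries, and neither were Mmrn1 and Foxc2, with Mmrn1 the higher in 5 of 12. The remaining neighbours, Ccl21a over Mmrn1, Foxc2 over Prox1 and Prox1 over Reln, kept their order in 12 of 12 libraries.

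Most of these genes had a wide spread between libraries. The ratio of the highest to the lowest library was 13.1 for Reln, 8.56 for Prox1, 7.33 for Mmrn1, 5.35 for Ccl21a, 3.30 for Foxc2 and 1.48 for Pdpn. The SD of log2 CPM over 12 libraries was 1.06, 0.94, 0.92, 0.90 and 0.51 for Reln, Prox1, Mmrn1, Ccl21a and Foxc2, and 0.18 for Pdpn. The median over all tested genes was 0.25. An SD above 0.5 was reached by 5 of the 6 members and by 17.4% of all tested genes. Reln, Prox1, Mmrn1 and Ccl21a stood at percentiles 97.6, 96.5, 96.3 and 96.0 of all tested genes, Foxc2 at 83.5 and Pdpn at 30.8. Within the groups, the SD of log2 CPM of Prox1 was 1.27 in AVF-CKD and 0.59 in sham, that of Reln 1.41 in AVF-CKD and 0.71 in sham, and that of Mmrn1 1.13 in AVF-CKD and 0.76 in sham. The difference in spread between the groups was not tested.

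**Figure D2:**
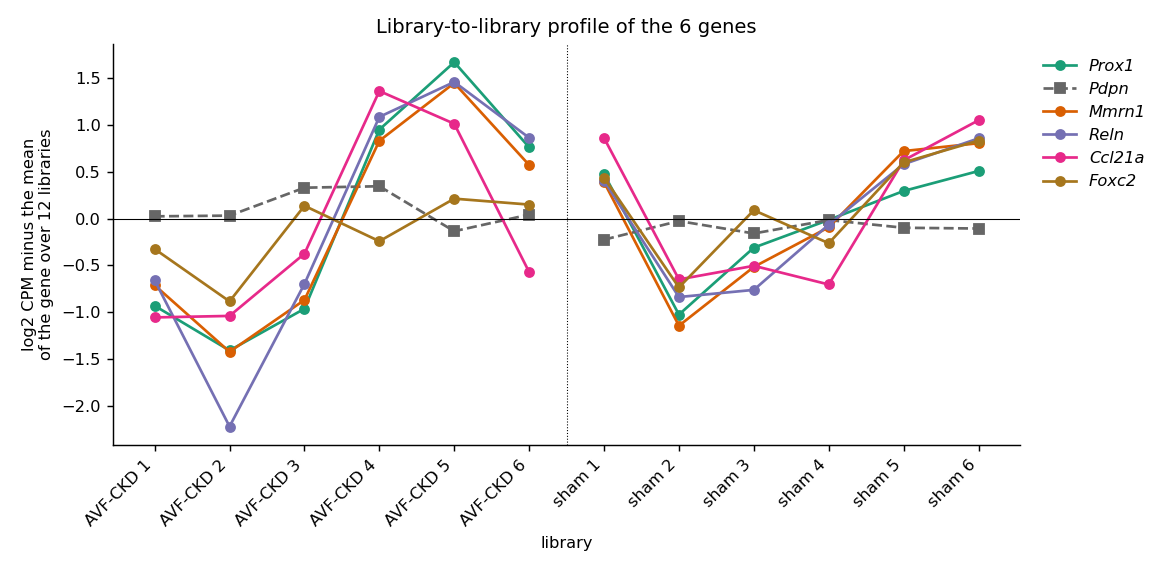
Profile of the 6 genes over the 12 libraries, AVF-CKD on the left of the dotted line and sham on the right, as log2 CPM minus the mean of that gene over all libraries. Prox1, Mmrn1 and Reln trace nearly the same line, low in AVF-CKD 1 to 3 and sham 2 and high in AVF-CKD 4 to 6, Ccl21a leaves it at AVF-CKD 6, and Pdpn (grey squares) stays near 0.

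Prox1, Mmrn1 and Reln varied together from library to library. Over the 12 libraries the log2 CPM of Prox1 and Mmrn1 had Pearson r = 0.974 and Spearman rho = 0.965 (permutation p = 1e-05 for each, the smallest that 100000 resamples can give, adjusted p = 7.5e-05 over 15 pairs). Without AVF-CKD 2 and 5, the libraries farthest from the median of Prox1, r was 0.957, and within the groups it was 0.996 in AVF-CKD and 0.960 in sham (n = 6 each). Mmrn1 and Reln had r = 0.964 and rho = 0.958 (permutation p = 1e-05 for each, adjusted p = 7.5e-05), and Prox1 and Reln r = 0.947 and rho = 0.972 (permutation p = 2e-05 for each, adjusted p = 0.0001). Without AVF-CKD 2 and 5 these r were 0.972 and 0.950. Among the other 18964 tested genes, the gene most like Prox1 by r was Mmrn1, and the gene most like Mmrn1 was Prox1. Reln had rank 3 for Mmrn1, and Mmrn1 had rank 1 for Reln.

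Ccl21a followed the same pattern with lower r. It had r = 0.825 with Mmrn1 (rho = 0.790, permutation adjusted p = 0.00861 for r), 0.789 with Reln (rho = 0.699, adjusted p = 0.00861) and 0.783 with Prox1 (rho = 0.734, adjusted p = 0.0106). Without AVF-CKD 2 and 5 these r were 0.769, 0.751 and 0.713. Foxc2 had r = 0.705 with Mmrn1 (rho = 0.706, permutation adjusted p = 0.0244), 0.678 with Reln (rho = 0.643, adjusted p = 0.0285), 0.639 with Ccl21a (rho = 0.720, adjusted p = 0.0456) and 0.601 with Prox1 (rho = 0.650, adjusted p = 0.0586). Without the 2 libraries farthest from the median of the other member, these r were 0.646, 0.530, 0.761 and 0.507. The relations of Foxc2 with Mmrn1 and Reln missed 0.05 when AVF-CKD 2 or sham 2 was left out (r = 0.5999 and 0.506 without AVF-CKD 2, 0.643 and 0.654 without sham 2). That of Foxc2 with Ccl21a missed it in 8 of the 12 refits that left out 1 library, and that of Foxc2 with Prox1 passed it without AVF-CKD 3 or 4 (r = 0.665 and 0.691). Many other genes were closer to these members. By r with Prox1, Ccl21a had rank 683 and Foxc2 rank 2490 among the other 18964 tested genes. For Mmrn1 these ranks were 286 and 1228, and for Reln 467 and 1462. In all, 9 of the 15 pairs had an adjusted p below 0.05, all with positive r. The share of all gene pairs that would pass in the same way was not computed. None of the 9 involved Pdpn, whose r with the other members ran from -0.33 to -0.07. Without AVF-CKD 3 and 4, the libraries farthest from the median of Pdpn, its r was -0.76 with Ccl21a, -0.63 with Foxc2, -0.47 with Mmrn1 and -0.41 with Reln. The values of Pdpn therefore depended on these libraries.

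**Figure D3:**
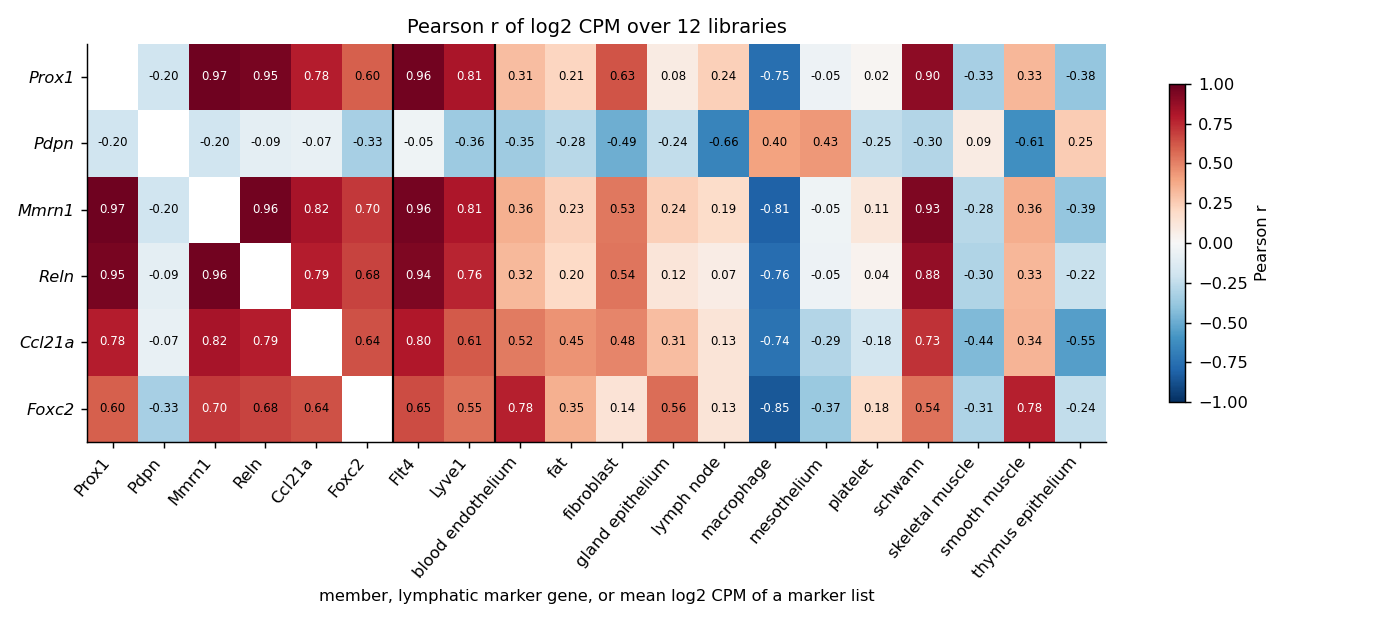
Pearson r of log2 CPM over 12 libraries between each member (rows) and the other members, the lymphatic markers Flt4 and Lyve1, and the mean log2 CPM of marker lists of other cell types (columns), with red for positive and blue for negative r. Prox1, Mmrn1 and Reln share high r with each other and with Flt4 (0.94 to 0.97), and the highest r in the row of Pdpn is 0.435, with the mesothelium list.

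Flt4, the VEGF-C receptor, followed the same line. It averaged 25.3 ± 15.2 CPM in AVF-CKD and 19.6 ± 6.72 CPM in sham (SD, n = 6 each), and its log2 fold change was 0.37 ± 0.38 (edgeR adjusted p = 0.809). Its r was 0.964 with Prox1 (rho = 0.937), 0.959 with Mmrn1 (rho = 0.930), 0.937 with Reln (rho = 0.958) and 0.799 with Ccl21a (rho = 0.783), with permutation adjusted p of 0.00042, 0.00042, 0.00105 and 0.0227 over 84 pairs of a member and a marker. Without the 2 libraries farthest from the median of the member they were 0.935, 0.930, 0.945 and 0.794. Lyve1, the hyaluronan receptor of lymphatic endothelium that some resident macrophages also make, averaged 56.8 ± 20.96 CPM in AVF-CKD and 59.8 ± 11.9 CPM in sham. Its r was 0.813 with Prox1 (rho = 0.755, permutation adjusted p = 0.0163), and this was 0.929 within AVF-CKD and 0.443 within sham, and 0.626 without AVF-CKD 2 and 5.

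By the same likeness, the 3 named genes nearest to each member over 12 libraries, out of 14948 with a proper name, were as follows. Prox1 was nearest to Mmrn1, Bcr and Kank2 (r = 0.974, 0.971 and 0.970), Mmrn1 to Prox1, Pard6g and Reln (0.974, 0.964 and 0.964), and Reln to Mmrn1, Clcn6 and Phldb2 (0.964, 0.963 and 0.962). Ccl21a was nearest to Pard6g, Mgl2 and Nr6a1 (0.900, 0.896 and 0.892), and Foxc2 to Cdkn2b, Mprip and Map3k7cl (0.913, 0.900 and 0.899). Pdpn was nearest to Gsr, the glutathione reductase gene, Irak2, a kinase of interleukin-1 signalling, and Gad1-ps, a pseudogene (0.958, 0.942 and 0.938). The likeness of Prox1 was shared widely, since 550 of the other 18964 genes (2.90%) had r above 0.8 with it and 557 had r below -0.8. The same counts above 0.8 were 430 for Mmrn1, 391 for Reln, 104 for Pdpn, 74 for Foxc2 and 43 for Ccl21a.

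A property of the libraries moved with 3 of the genes. For each library the slope of log2 CPM, relative to the mean of all libraries, was taken on log2 gene length over 11490 genes, so that a positive slope means that long genes were relatively higher there. It ran from -0.07 to 0.14 in AVF-CKD and from -0.08 to 0.05 in sham (two-sided exact permutation p = 0.426 between the groups). Its r was 0.835 with Prox1 (rho = 0.790), 0.805 with Mmrn1 (rho = 0.762) and 0.793 with Reln (rho = 0.860), each with a permutation adjusted p of 0.0078 over 12 pairs, while it was 0.404 with Ccl21a, 0.310 with Foxc2 and -0.06 with Pdpn. Without the 2 farthest libraries the r with Prox1 was 0.725, and within the groups it was 0.946 in AVF-CKD and 0.527 in sham. The lengths in the count table were 19834 bases for Reln, 8390 for Prox1, 5868 for Mmrn1, 2725 for Foxc2, 1817 for Pdpn and 870 for Ccl21a.

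With the slope held constant, the partial correlations were 0.925 for Prox1 and Mmrn1, 0.902 for Mmrn1 and Reln, 0.850 for Prox1 and Reln, and 0.921 for Mmrn1 and Ccl21a. With the slope as a covariate in the edgeR fit, the log2 fold changes turned negative, to -0.40 ± 0.30 for Prox1, -0.49 ± 0.29 for Mmrn1 and -0.45 ± 0.35 for Reln (adjusted p = 0.572, 0.463 and 0.592), and that of Pdpn was 0.24 ± 0.08 (adjusted p = 0.241). The share of counts from the ribosomal DNA copy, 4.18% to 7.46% in AVF-CKD and 3.89% to 6.25% in sham, had no r with a member over the 12 libraries that passed 0.05 after adjustment. Its r differed in sign between the groups (n = 6 each). Within AVF-CKD it was 0.939 with Prox1, 0.928 with Mmrn1, 0.900 with Reln, 0.854 with Ccl21a and 0.721 with Foxc2. Within sham it was -0.65, -0.70, -0.64, -0.48 and -0.74 with the same genes. The difference between the groups and the part of this share in the members were not tested.

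**Figure D4:**
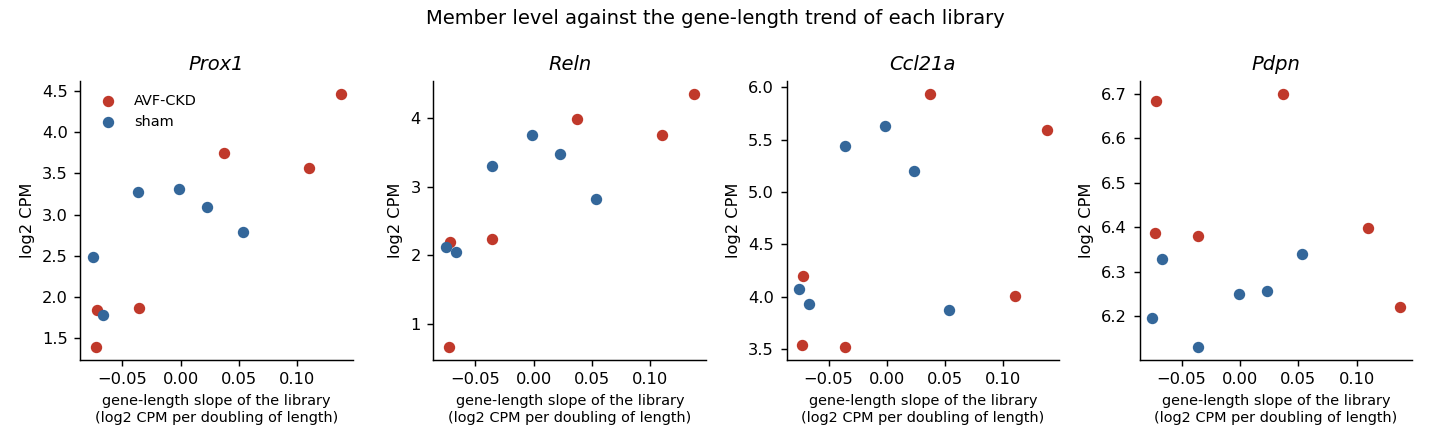
Log2 CPM of Prox1, Reln, Ccl21a and Pdpn (vertical axes) against the gene-length slope of the library (horizontal axis, log2 CPM per doubling of length), with AVF-CKD in red and sham in blue, 1 point per library. The r with the slope is 0.835 for Prox1 and 0.793 for Reln, with the AVF-CKD points at both ends, 0.404 for Ccl21a and -0.06 for Pdpn.

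The sets of AVF-CKD libraries described for Prox1 follow the numbers in their titles. In edgeR fits of the libraries numbered 1 to 3 in both groups, chosen after the values had been seen, the log2 fold change was -0.94 ± 0.38 for Prox1, -0.69 ± 0.39 for Mmrn1 and -0.76 ± 0.50 for Reln. In those numbered 4 to 6 it was 0.90 ± 0.27 for Prox1, 0.47 ± 0.30 for Mmrn1 and 0.65 ± 0.26 for Reln (adjusted p between 0.410 and 0.608 for the 6 values). The sets were taken from the AVF-CKD levels of Prox1, Mmrn1 and Reln. The opposite signs of these genes therefore follow from the choice and support nothing. Pdpn had 0.27 ± 0.10 among numbers 1 to 3 and 0.17 ± 0.13 among numbers 4 to 6. The labels name no batch, and the difference between the sets of numbers was not tested.

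Marker lists of other cell types also moved with the members. The macrophage list (6 of 6 genes tested, led by the lysozyme gene Lyz2) summed to 5688 to 10655 CPM in AVF-CKD and 5346 to 10731 CPM in sham, and its mean log2 CPM had negative r with 5 members. These were -0.85 for Foxc2 (rho = -0.90, permutation adjusted p = 0.00576), -0.81 for Mmrn1 (rho = -0.77, 0.0185), -0.76 for Reln (rho = -0.72, 0.0227), -0.75 for Prox1 (rho = -0.75, 0.0304) and -0.74 for Ccl21a (rho = -0.73, 0.0389). Without the 2 farthest libraries they were -0.80, -0.77, -0.73, -0.70 and -0.86. The Schwann cell list (5 of 5 genes tested, led per length by S100b) summed to 37.0 to 57.3 CPM in AVF-CKD and 35.5 to 42.9 CPM in sham. Its r was 0.931 with Mmrn1 (rho = 0.958, permutation adjusted p = 0.00056), 0.895 with Prox1 (rho = 0.909, 0.00218), 0.878 with Reln (rho = 0.902, 0.00336) and 0.726 with Ccl21a (rho = 0.720, 0.0447), and without the 2 farthest libraries 0.893, 0.812, 0.867 and 0.698. With the length slope held constant, the r of the Schwann list was 0.801 with Mmrn1 and 0.679 with Prox1. The skeletal muscle list summed to 700 to 9860 CPM in AVF-CKD and 402 to 10369 CPM in sham. The fat list summed to 757 to 1537 CPM in AVF-CKD and 941 to 4136 CPM in sham. Its median log2 fold change was -0.90, and none of its genes was called. No r of these 2 lists with a member had an adjusted p below 0.05. The part of macrophage, nerve, muscle or fat tissue in the spread of the members was not tested.

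The blood endothelial list (8 of 8 tested) holds Pecam1 and Cdh5, which lymphatic endothelium also makes, so it is not specific to blood vessels. It summed to 1040 to 1554 CPM in AVF-CKD and 1212 to 1632 CPM in sham. Its r was 0.779 with Foxc2 (rho = 0.720, permutation adjusted p = 0.0207) and 0.311 to 0.523 with Prox1, Mmrn1, Reln and Ccl21a. Within sham (n = 6) its r was 0.885 with Foxc2, 0.803 with Ccl21a and 0.736 with Prox1. Within AVF-CKD (n = 6) it was 0.649, 0.346 and 0.227 with the same genes. With the length slope held constant, the r of the blood endothelial list was 0.661 with Prox1, 0.690 with Mmrn1 and 0.609 with Reln. It was 0.6 with Ccl21a and 0.842 with Foxc2 in the same way, and these partial r were not tested. The smooth muscle list (6 of 6 tested) summed to 1001 to 1799 CPM in AVF-CKD and 1358 to 2207 CPM in sham and had r = 0.780 with Foxc2 (rho = 0.790, permutation adjusted p = 0.0207), 0.330 to 0.363 with Prox1, Mmrn1, Reln and Ccl21a, and -0.61 with Pdpn. For Pdpn rho was -0.78, with a permutation adjusted p of 0.0293 for rho and 0.129 for r. Whether these r differed between members was not tested. Without AVF-CKD 2 and sham 2 these r with Foxc2 were 0.782 and 0.844. Platelets also hold MMRN1, and lymph nodes make CCL21. The platelet list summed to 218 to 346 CPM in AVF-CKD and 187 to 444 CPM in sham, with r = 0.111 with Mmrn1. The lymphocyte and lymph node list summed to 29.9 to 48.8 CPM in AVF-CKD and 22.7 to 46.7 CPM in sham, with r = 0.128 with Ccl21a and -0.66 with Pdpn (adjusted p = 0.0852). Of its 9 genes 8 were tested and none was called, and Madcam1, the vascular addressin, had too few counts to be tested. Cxcl13, the chemokine that draws B cells into follicles, stood at 1.10 to 15.4 CPM in AVF-CKD and 1.13 to 11.4 CPM in sham, and the lymphotoxin gene Ltb at 6.03 to 15.2 CPM in AVF-CKD and 4.96 to 11.8 CPM in sham. The part of lymph node tissue in the members was not tested.

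The wider lymphatic pathway was read from 5 lists of 42 ligands, receptors, transcription factors, surface proteins and partners of the members, of which 41 were tested. None was called by edgeR (background 0%). There were 16 positive and 25 negative log2 fold changes, with a median of -0.06 against -0.00 over all genes. At an unadjusted p below 0.05 stood 3 genes (7.32%, against 9.34% of all tested genes), and 38 of the 41 had a 95% interval that stayed within a doubling in either direction.

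Among the ligands (8 tested, 0 called), Vegfd, listed as Figf and the highest per length, averaged 31.3 ± 8.86 CPM in AVF-CKD and 31.6 ± 3.95 CPM in sham. Vegfc, the main lymphangiogenic growth factor, averaged 18.9 ± 5.22 CPM in AVF-CKD and 18.97 ± 2.57 CPM in sham (log2 fold change -0.00 ± 0.16). Angpt1, an activating ligand of the receptor TIE2, had the lowest p of the ligands, with -0.21 ± 0.18 on the log2 scale (edgeR adjusted p = 0.755).

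Among the receptors (9 tested, 0 called), Calcrl, the adrenomedullin receptor and the highest per length, averaged 235.6 ± 101.6 CPM in AVF-CKD and 278.7 ± 48.0 CPM in sham. Plxna1, a semaphorin co-receptor, averaged 117.0 ± 21.6 CPM in AVF-CKD and 89.4 ± 14.2 CPM in sham (log2 fold change 0.39 ± 0.13, edgeR adjusted p = 0.443). Tek, the gene of TIE2, averaged 81.5 ± 16.9 CPM in AVF-CKD and 102.0 ± 11.3 CPM in sham (-0.32 ± 0.13, adjusted p = 0.498). Both had overlapping groups.

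Among the transcription factors (8 tested, 0 called), Sox18, an inducer of Prox1, averaged 60.1 ± 17.3 CPM in AVF-CKD and 62.6 ± 15.02 CPM in sham. Nr2f2, the venous identity factor that works with it, averaged 53.2 ± 15.3 CPM in AVF-CKD and 65.9 ± 10.4 CPM in sham (log2 fold change -0.31 ± 0.17, edgeR adjusted p = 0.597), and it was named after its values were seen. Nfatc1, a partner of FOXC2 in valve formation, averaged 61.2 ± 6.78 CPM in AVF-CKD and 52.2 ± 6.80 CPM in sham (0.23 ± 0.10, adjusted p = 0.503).

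Among the surface and junction genes (10 tested, 0 called), Thy1 averaged 168.4 ± 20.1 CPM in AVF-CKD and 169.8 ± 27.2 CPM in sham, and Piezo1, a force-sensing channel of valve endothelium, was at 0.17 ± 0.10 on the log2 scale (edgeR adjusted p = 0.616). The partners of the members had 6 of 7 genes tested and 0 called. Ccl19, the other CCR7 ligand, averaged 10.46 ± 2.05 CPM in AVF-CKD and 13.7 ± 6.22 CPM in sham, and Ackr4, a scavenger of CCL19 and CCL21, 7.35 ± 1.27 CPM in AVF-CKD and 8.94 ± 1.49 CPM in sham (log2 fold change -0.28 ± 0.14, adjusted p = 0.560). Ccr7, the receptor of CCL21, ran from 7.09 to 23.3 CPM in AVF-CKD and from 5.21 to 40.1 CPM in sham. Clec1b, the gene of CLEC-2, averaged 10.2 ± 2.42 CPM in AVF-CKD and 14.1 ± 5.91 CPM in sham. The reelin receptors Vldlr and Lrp8 had log2 fold changes of -0.03 ± 0.15 and 0.08 ± 0.22, and Dab1, their adaptor inside the cell, had 8 counts in all and was not tested.

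**Figure D5:**
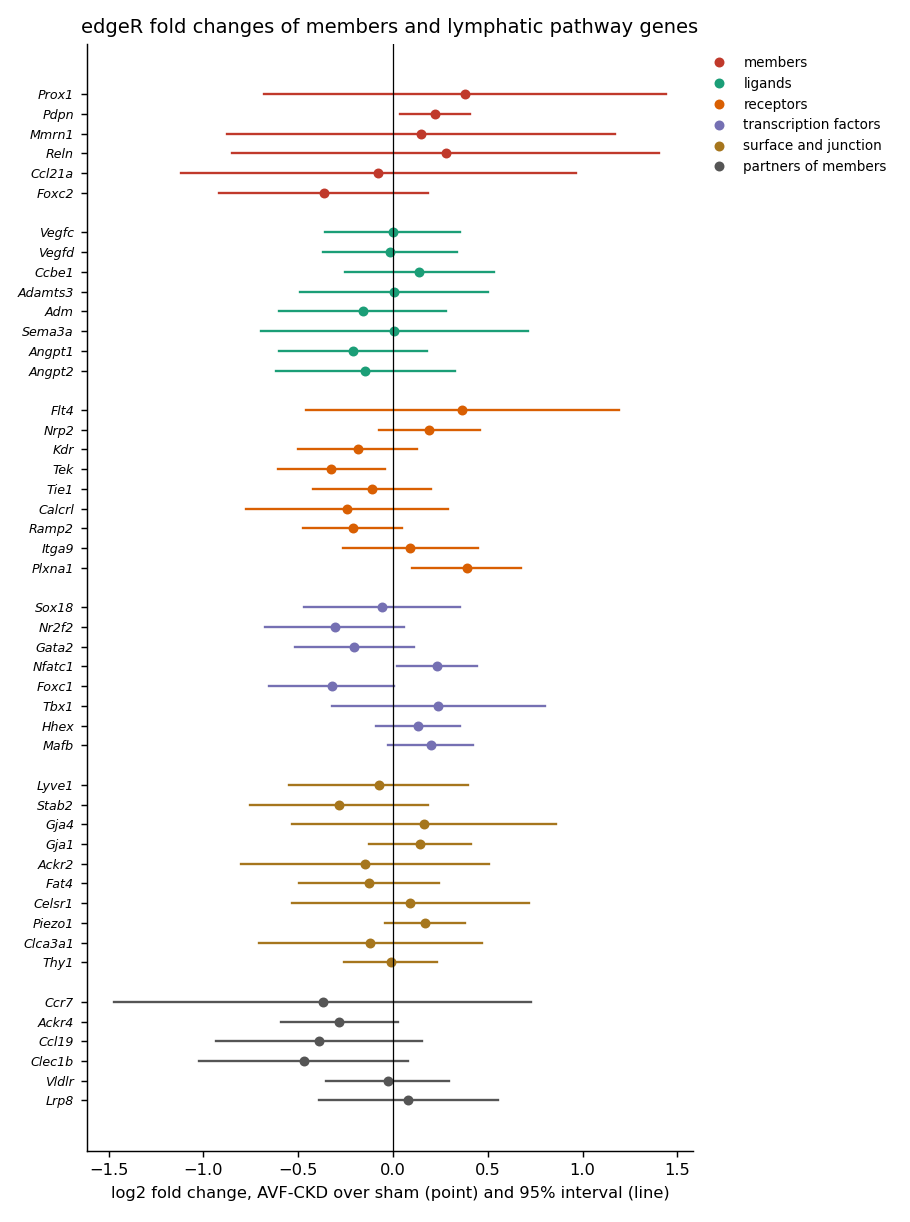
Log2 fold change of AVF-CKD over sham from edgeR (point) with its 95% interval (line) for the 6 members and the 41 tested pathway genes, grouped by role, on a log2 axis. The intervals of Prox1, Mmrn1, Reln and Ccl21a are among the widest, those of Pdpn, Plxna1, Nfatc1 and Tek leave 0 outside, and none of these genes passed adjustment over all genes.

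Within the 41 tested pathway genes, 7 had r above 0.8 with Mmrn1 over the 12 libraries, a level that 2.27% of all other tested genes reached. They were Flt4, Sema3a, Ackr2, Celsr1, Ccbe1, Kdr and Lyve1, named after their values were seen. Flt4, Ackr2 and Celsr1 are known from lymphatic endothelium or its valves, and SEMA3A and CCBE1 are secreted factors of valve formation and of VEGF-C processing. Their highest and lowest libraries differed by 4.99 times for Flt4, 4.04 times for Sema3a and 1.89 times for Kdr. The median r with Mmrn1 over the 41 genes was 0.426. Mmrn1 itself had r = 0.805 with the gene-length slope of the libraries. With the slope held constant, its r was 0.882 with Flt4 and 0.662 with Lyve1. The part of the slope in the r of the other genes was not tested.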

How the data were processed

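Vein RNA of 12 samples was sequenced on an Illumina HiSeq instrument from TruSeq libraries, which do not mark strand, per the labels' protocols. Per the submitters' processing notes, the authors used TopHat2 2.1.0, featureCounts and edgeR with GRCm38. Read filters, the annotation release and the handling of reads with several matches were not stated. The authors' deposited counts, whole numbers per gene, entered all tests. The authors' deposited RPKM values, which scale counts by gene length and library size, were left out. Groups and numbers came from the sample titles.

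Genes were kept by filterByExpr, and edgeR 4.0.16 (R 4.3.3) fitted TMM-scaled counts by group alone, with the quasi-likelihood test and Benjamini-Hochberg adjustment over 18965 genes at 0.05. Log2 CPM used a prior count of 2. Correlations used 100000 permutations (SciPy 1.17.1). Alternatives were other scalings and filters, the title number as a block, muscle and lymph node scores as covariates, 1 surrogate variable (sva 3.50.0), DESeq2 1.42.0, weighted voom (limma 3.58.1), and leaving out each library. Title numbers 1 to 3 and 4 to 6 and the gene-length slope were added after the values had been seen. The edgeR fit and the correlation were tested on simulated data. Members and gene lists were chosen with earlier results of these data known. Genes were named as members, as the highest per length and lowest p of each pathway list, and as the 3 nearest to each member, beside marker genes that a result turned on. A gene of the surface and junction list is not reported here. No column of another series was present. The lowest library of Reln held 60 counts, so counting error is small beside the spread between libraries.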

Additional observations from a re-analysis of the deposited data

Results flagged for a closer look

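Outlying libraries were looked for in the members and in the summed levels of the pathway and marker lists, within each group of 6. There were 46 such groups of values, of which chance alone would mark about 1 in 20, or 2.3, and 2 were marked. The summed level of the gland epithelium list was 11.3 CPM in AVF-CKD 2, far above the 3.11 to 5.33 CPM of the other AVF-CKD libraries. It was 37.3 CPM in sham 6, against 1.75 to 7.33 CPM in the other sham libraries. None of the 6 lymphatic genes had such a library. AVF-CKD 2 held the lowest level of Prox1, Mmrn1, Reln and Foxc2, and sham 6 the highest sham level of Prox1, Mmrn1, Reln, Ccl21a and Foxc2. The part of gland tissue in these levels was not tested.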

How the results depend on the processing

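None of the 6 members was called in any of the 25 refits, and Pdpn stayed positive (0.17 to 0.27) and Foxc2 negative (-0.50 to -0.21) in all 27. Over all genes, 0 were called by edgeR in the fit reported, 102 by DESeq2, 1 with 1 surrogate variable and 0 to 1 when each library was left out in turn (1 without AVF-CKD 3). The other members turned sign in some refits, and the cause was not tested. With limma voom and sample weights the log2 fold changes were -0.11 for Prox1, -0.12 for Mmrn1 and -0.12 for Reln, and with the skeletal muscle score as a covariate that of Mmrn1 was -0.018. Leaving out 1 library at a time, they ran from -0.063 to 0.57 for Prox1, -0.24 to 0.33 for Mmrn1, -0.052 to 0.50 for Reln and -0.48 to 0.13 for Ccl21a. In the refits added after the values had been seen, title numbers 1 to 3 alone gave -0.94 for Prox1, -0.69 for Mmrn1 and -0.76 for Reln, numbers 4 to 6 alone gave 0.32 for Ccl21a, and both sets as a term gave -0.10 for Mmrn1 and -0.036 for Reln. In the sets taken alone, the signs of Prox1, Mmrn1 and Reln follow from how the sets were chosen. The gene-length slope as a covariate gave -0.40, -0.49 and -0.45 for Prox1, Mmrn1 and Reln. The 9 correlated pairs became 6 to 10 without 1 library, and r ran from -0.39 to 0.033 for Pdpn with Reln and from -0.52 to 0.053 for Pdpn with Ccl21a.

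With the title number as a replicate block, Prox1 was at 0.039, Mmrn1 at -0.050, Reln at -0.029, Ccl21a at -0.25, Pdpn at 0.21 and Foxc2 at -0.32 (adjusted p of 0.425 or more for all 6), 0 genes were called and 2058 had an unadjusted p below 0.05, against 1772 without it. The r of same-numbered libraries was taken over the tested genes, on log2 CPM minus the mean of each gene in its group. It was -0.03, 0.24, 0.28, -0.11, -0.10 and 0.14 for numbers 1 to 6. It was above 0.1 for numbers 2, 3 and 6 but not for the others, and AVF-CKD 2 and 3 alone correlated best with their own number, so the numbers were not taken to pair the samples.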
